A study of Homo sapiens with 4 samples.

Results

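The mitochondrial genome of human cells encodes 13 mRNAs, 2 rRNAs and 22 tRNAs, and these 37 genes are the subject here. They were taken as every gene model whose symbol starts with MT-, which gave 37 of the 57820 gene models in the deposited tables. RNA sequencing had been carried out on G401, an established line of kidney rhabdoid tumour, a cancer driven by loss of the SWI/SNF chromatin remodelling subunit SMARCB1. The series held 4 libraries, 2 from G401 cells with a CRISPR-Cas9 knockout of BRD9 (BRD9 KO) and 2 from G401 cells with the LacZ control. A SWI/SNF sub-complex contains BRD9, a protein with a bromodomain, and the comparison asks which transcripts differ once it is lost in SMARCB1-deficient cells. Cells of both groups therefore share the SMARCB1 loss, and no library had a count for SMARCB1. By counting error alone, this limits it to 0.199 CPM (counts-per-million) in the smallest library. BRD9 itself stood at 29.4 and 26.8 CPM in the BRD9 KO libraries, against 48.2 and 53.8 CPM in the LacZ control libraries (log2 fold change -0.86, SE 0.07, edgeR adjusted p = 2.84e-09), so the transcript was lowered and not lost. These values are of RNA and do not measure the protein, whose deletion in G401 the study shows by western blot. Library totals ran from 15053247 to 19559290 estimated counts.

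Mitochondrial DNA is a small circle, copied and transcribed inside the organelle by enzymes that are all encoded in the nucleus. Both of its strands, called heavy and light, are transcribed into long RNAs that run through many genes, and the tRNAs that lie between most of the other genes are cut out to release rRNAs and mRNAs. The mRNAs encode membrane subunits of respiratory complexes I, III and IV and of ATP synthase, the remaining subunits being made from nuclear genes. The rRNAs, MT-RNR1 of the small and MT-RNR2 of the large ribosomal subunit, and the tRNAs serve only the translation of these mRNAs. Most mitochondrial mRNAs carry short poly(A) tails, and in several of them the tail completes the stop codon. In bulk samples a lower share of a transcript cannot be told apart from fewer mitochondrial genomes per cell, less transcription of each or faster decay.

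The shapes of these genes set what the tables can hold. The effective length that RSEM, the counting program of the study, wrote for a gene was its length less 74 bases in at least 99.99% of gene models longer than that (within 0.011 bases), as reads of 75 bases would give. A tRNA gene shorter than a read then has an effective length of 0 and can receive no count. MT-TL1, the tRNA for leucine (UUR), is 75 bases long and has a single position where such a read can start, marked by the capital. MT-TN, the tRNA for asparagine, is the second longest with 73 bases and has none. The sequences are those of GRCh37, on the plus strand at MT:3230-3304 for MT-TL1 and on the minus strand at MT:5657-5729 for MT-TN.
MT-TL1: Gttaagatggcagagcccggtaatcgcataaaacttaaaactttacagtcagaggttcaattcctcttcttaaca
MT-TN: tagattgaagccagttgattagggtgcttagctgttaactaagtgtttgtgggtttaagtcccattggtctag

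A second feature concerns the bicistronic mRNAs, where a pair of reading frames lies on a single RNA and overlaps. MT-ATP8 and MT-ATP6 share 46 bases (MT:8527-8572), and MT-ND4L and MT-ND4 share 7 bases (MT:10760-10766), shown in capitals with 20 flanking bases on each side, 5′ to 3′ on the plus strand.
MT-ATP8/MT-ATP6: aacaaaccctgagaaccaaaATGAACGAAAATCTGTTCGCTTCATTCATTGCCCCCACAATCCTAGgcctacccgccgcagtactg
MT-ND4L/MT-ND4: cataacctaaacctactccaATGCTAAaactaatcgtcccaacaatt
Both overlaps are shorter than 75 bases, so a read of that length inside 1 gene model cannot also lie wholly inside its partner. In these and all other mitochondrial mRNAs and rRNAs the deposited posterior SD of the count was at most 0.0795% of the count, so that little of these counts was divided between gene models.

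The third feature is the 3′ end. As annotated, the genome leaves the stop codon incomplete in 6 of the 13 mRNAs and complete in 7. In those 6 the poly(A) tail has to supply the missing bases. MT-ATP6 is counted among the 7, but its last base, MT:9207, is also annotated as the first base of MT-CO3. Its class therefore rests on the annotation. The last 15 bases of 4 mRNAs, shown to give a higher and a lower mRNA of each kind, have the last codon or what the genome gives of it in capitals.
MT-ND2 (MT:5497-5511): tactaataatcttaT
MT-CO1 (MT:7431-7445): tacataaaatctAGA
MT-ND4 (MT:12123-12137): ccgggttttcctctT
MT-ND5 (MT:14134-14148): ctcctaatcacaTAA
MT-CO1 ends in AGA, which is not a stop codon in the standard code.

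Taken as a whole, mitochondrial transcripts made up slightly less of the BRD9 KO libraries. All 37 genes together held 8.152% and 8.150% of the counts of the BRD9 KO libraries, against 8.436% and 8.476% in the LacZ control libraries. The 95% Wilson intervals, which cover counting error only, were at most 0.0140 percentage points to each side. The difference of the means was -0.305 percentage points. The mRNAs held 6.142% and 6.140% in BRD9 KO and 6.381% and 6.420% in LacZ control. The rRNAs held 2.0099% and 2.0098% in BRD9 KO and 2.054% and 2.055% in LacZ control. For all of these shares the groups did not overlap, and the difference was larger than that between replicates. An exact two-sided permutation test of 2 against 2 libraries cannot go below p = 0.333, the value that each of these shares gave.

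**Figure D1:**
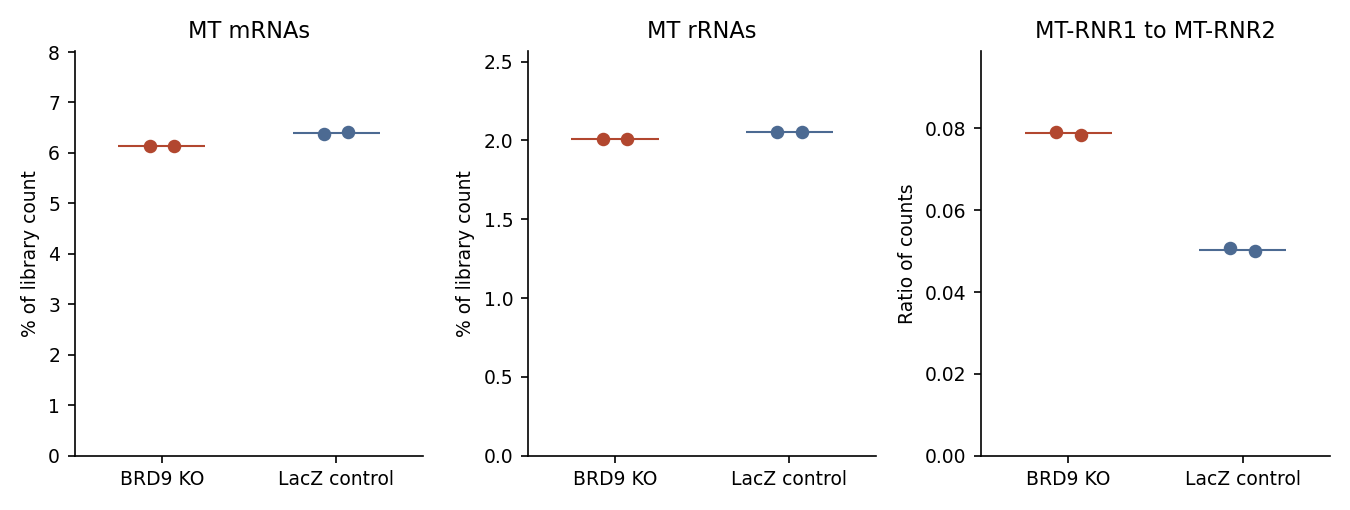
Share of library counts held by mitochondrial (MT) mRNAs and by MT rRNAs, in percent, and the ratio of MT-RNR1 to MT-RNR2 counts, each axis starting at 0. Points are libraries and lines are group means of 2. The shares of both types were slightly lower in BRD9 KO, and the rRNA ratio was 0.07919 and 0.07834 in BRD9 KO against 0.05077 and 0.05002 in LacZ control.

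The small change in the sum was made of changes in both directions. In the edgeR fit over 15288 genes, 38.6% of all genes were called at an adjusted p under 0.05, with 20.5% higher and 18.1% lower in BRD9 KO. Of the 13 mitochondrial mRNAs, 5 were higher, 6 lower and 2 not called, and of the rRNAs 1 was higher and 1 lower. A larger share of these genes than of all genes was called, but their counts were among the highest in the libraries and replicates of a group differed by a median of 0.299% in BRD9 KO and 0.972% in LacZ control over the 15 mRNAs and rRNAs. Small folds therefore passed the test. The mRNAs ranged from 0.855-fold to 1.137-fold, with a median log2 fold change of -0.03, against -0.01 over all genes tested. The CPM values below are scaled by the TMM factors of edgeR.

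**Figure D2:**
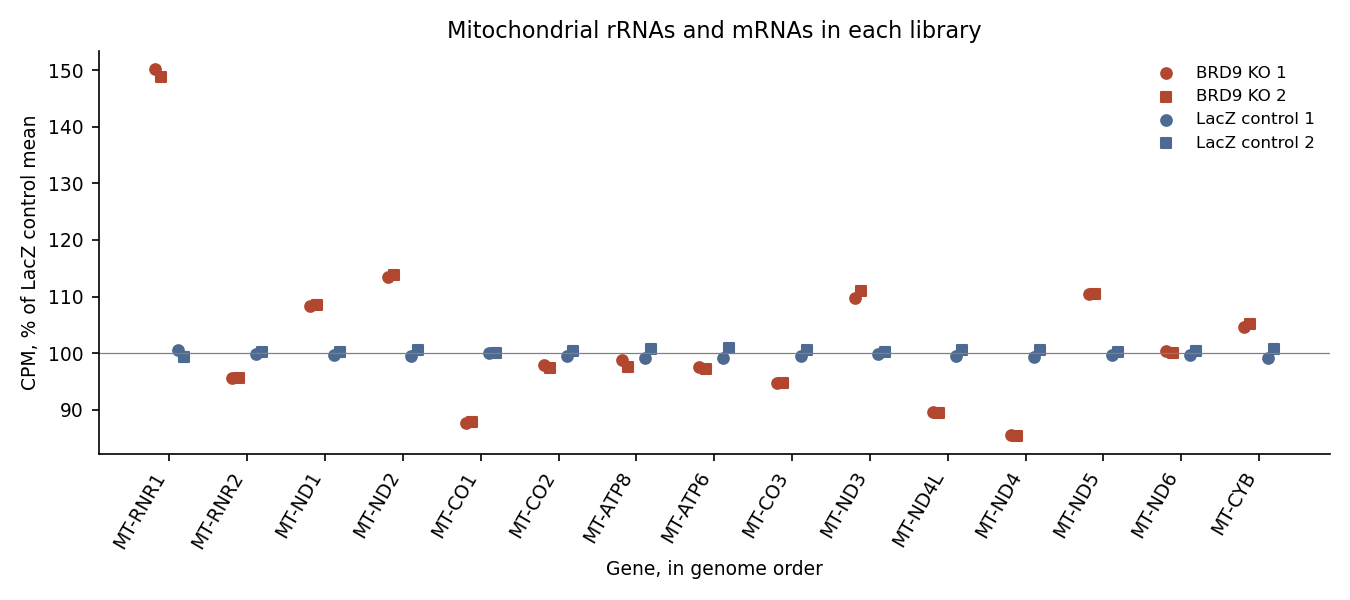
CPM of each mitochondrial rRNA and mRNA in each library, as percent of the LacZ control mean of that gene, in the order of the genes on the genome. The vertical axis does not start at 0. Circles are replicate 1 and squares replicate 2. MT-RNR1 lay near 150% in both BRD9 KO libraries, whereas the mRNAs lay between about 85% and 115%.

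The rRNA of the small ribosomal subunit showed the largest change of the mitochondrial genes tested. MT-RNR1 (ENSG00000211459, MT:648-1601, plus strand) had 28847 and 23936 counts in BRD9 KO, against 14941 and 16325 in LacZ control. Scaled, this was 1480 and 1466 CPM in BRD9 KO and 991 and 979 CPM in LacZ control, or 1473 ± 9.9 and 985 ± 8.3 CPM (SD, n = 2 each). Both BRD9 KO libraries lay far above both controls. The log2 fold change was 0.58 (SE 0.01, adjusted p = 8.72e-19), a 1.49-fold rise, and it stayed between 0.57 and 0.60 under all alternatives run.

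The rRNA of the large subunit did not share this rise. MT-RNR2 (MT:1671-3229, plus strand) had 364282 and 305543 counts in BRD9 KO and 294285 and 326370 in LacZ control, which were 18686 and 18709 CPM in BRD9 KO and 19523 and 19581 CPM in LacZ control. It was 0.956-fold (log2 fold change -0.06, adjusted p = 0.00338). Both rRNA genes lie next to each other in the same direction with the tRNA gene MT-TV between them, yet their counts stood in a ratio of 0.07919 and 0.07834 in BRD9 KO against 0.05077 and 0.05002 in LacZ control. Per length the rRNAs were far apart, with 2777 ± 20.4 TPM (transcripts-per-million) for MT-RNR1 in BRD9 KO and 1845 ± 19.8 TPM in LacZ control, and 20891 ± 5.9 TPM for MT-RNR2 in BRD9 KO and 21700 ± 4.7 TPM in LacZ control (SD, n = 2 each). In the cell each mitochondrial ribosome holds a single copy of both rRNAs.

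RNAs without a poly(A) tail are relevant here, since whether poly(A) RNA was selected is not given in the sources used. Of 24 listed nuclear RNAs of that kind, 20 were in the tables and 2 were tested. RN7SL2, an RNA of the signal recognition particle, had 62.2 and 61.1 CPM in BRD9 KO and 96.5 and 92.6 CPM in LacZ control (log2 fold change -0.61, edgeR adjusted p = 1.90e-10). RN7SL1, a near-identical copy that shares reads with it, had 41.2 and 38.3 CPM in BRD9 KO and 49.8 and 52.4 CPM in LacZ control (log2 fold change -0.36, adjusted p = 2.44e-05). The 18 others reached at most 0.612 CPM in any library. Both tested RNAs, which share reads and are no independent measures, were thus lower in BRD9 KO, where MT-RNR1 was higher. Whether selection of poly(A) RNA had a part in the change of MT-RNR1 was not tested.

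Complex I, which takes electrons from NADH, has 7 subunits encoded in mitochondria. Their mRNAs went in both directions: 4 were higher, 2 lower and 1 not called (20.5% higher and 18.1% lower over all genes). MT-ND2, a subunit of the proton-pumping membrane arm, had 4898 and 4912 CPM in BRD9 KO and 4291 and 4339 CPM in LacZ control (log2 fold change 0.18, SE 0.01, adjusted p = 5.40e-14). MT-ND5, another pumping subunit, had 4114 and 4115 CPM in BRD9 KO and 3718 and 3738 CPM in LacZ control (log2 fold change 0.14, adjusted p = 2.77e-12). MT-ND3 stood at 1108 and 1121 CPM in BRD9 KO and 1007 and 1011 CPM in LacZ control (log2 fold change 0.14, adjusted p = 4.78e-09). These 3 and MT-ND1, which helps form the quinone-binding site, did not overlap between the groups. How often groups of 2 libraries do not overlap over all genes was not counted. The separation is therefore not read as particular to these mRNAs. For MT-ND1 the values were 4266 and 4272 CPM in BRD9 KO and 3929 and 3949 CPM in LacZ control (log2 fold change 0.12, adjusted p = 4.70e-11).

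The 2 complex I mRNAs that fell share a transcript. MT-ND4, also a pumping subunit, had 5805 and 5799 CPM in BRD9 KO and 6746 and 6827 CPM in LacZ control, the largest fall among the mRNAs (log2 fold change -0.23, SE 0.01, adjusted p = 4.66e-16). MT-ND4L, which precedes it on the bicistronic mRNA printed above, had 919 and 917 CPM in BRD9 KO and 1021 and 1031 CPM in LacZ control (log2 fold change -0.16, adjusted p = 1.26e-09). The ratio of their counts, MT-ND4L to MT-ND4, was 0.1583 and 0.1581 in BRD9 KO and 0.1513 and 0.1510 in LacZ control, a small difference that was still larger than that between replicates. MT-ND5, separated from MT-ND4 by tRNA genes only, moved the other way. The ratio of MT-ND5 to MT-ND4 was 0.709 and 0.710 in BRD9 KO, against 0.551 and 0.548 in LacZ control, so the groups were apart by far more than the replicates.

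MT-ND6 is the only mRNA encoded on the other strand (MT:14149-14673, minus strand), and its groups overlapped. It had 1091 and 1086 CPM in BRD9 KO and 1083 and 1090 CPM in LacZ control, with a log2 fold change of 0.00 (SE 0.01, adjusted p = 0.859). The library kit named in the study does not mark strand. Reads of RNA from the opposite strand across this locus therefore cannot be told apart from MT-ND6 mRNA.

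MT-CYB, the mitochondrial subunit of complex III and the cytochrome b at which quinol is oxidised, was slightly higher. It had 4239 and 4261 CPM in BRD9 KO and 4019 and 4081 CPM in LacZ control (log2 fold change 0.07, SE 0.01, adjusted p = 4.52e-07).

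The 3 mRNAs of complex IV, cytochrome c oxidase, were all lower under TMM scaling, by unequal amounts. MT-CO1, the catalytic subunit, was the most counted mitochondrial mRNA with 308591 and 259144 counts in BRD9 KO and 272429 and 301022 in LacZ control. It had 15829 and 15868 CPM in BRD9 KO and 18073 and 18060 CPM in LacZ control, which is 0.877-fold (log2 fold change -0.19, adjusted p = 0.000342). MT-CO3 had 5500 and 5503 CPM in BRD9 KO and 5773 and 5840 CPM in LacZ control (log2 fold change -0.08, adjusted p = 1.12e-08). MT-CO2, which receives electrons from cytochrome c, had 5594 and 5565 CPM in BRD9 KO and 5692 and 5740 CPM in LacZ control (log2 fold change -0.03, adjusted p = 0.000203), and this call was lost without the filter on low counts (adjusted p = 0.426, range over all alternatives 1.38e-06 to 0.426).

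The mRNAs of ATP synthase stayed within a few percent of the control level. MT-ATP6, a subunit of its proton channel, had 6866 and 6843 CPM in BRD9 KO and 6977 and 7101 CPM in LacZ control (log2 fold change -0.04, adjusted p = 0.000521). The call on MT-ATP6 was lost with no filter (adjusted p = 0.272), with a minimum of 1 CPM in each library (0.0879) and with limma on log2(TPM + 1) (0.0580), the range over all alternatives being 9.60e-06 to 0.272. MT-ATP8 had 1390 and 1372 CPM in BRD9 KO and 1395 and 1417 CPM in LacZ control and was not called (log2 fold change -0.03, adjusted p = 0.0645), but it was without LacZ control replicate 1 (adjusted p = 0.0355), with library totals alone (0.0209), with a minimum of 1 CPM (0.00882) and with the replicate number as a block (0.0429). Over all alternatives its adjusted p ran from 0.00882 to 0.734. The ratio of their counts, MT-ATP8 to MT-ATP6, was 0.202 and 0.200 in BRD9 KO and 0.200 and 0.200 in LacZ control.

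Of the tRNAs only MT-TL1 could receive counts, and a read over its whole length can also come from a longer uncut RNA. MT-TL1 had 29 and 28 counts in BRD9 KO and 19 and 31 in LacZ control, so the groups overlapped (log2 fold change 0.02, SE 0.32, edgeR adjusted p = 0.965, unadjusted p = 0.941). It was also not called by DESeq2 or limma. The other 21 tRNA genes, of 59 to 73 bases, had an effective length of 0 and 0 counts in every library. The same held for all 1261 gene models with an effective length of 0, none of which had a count in any library. A count of 0 in this class gives no upper limit on the RNA. An effective length of 1 base also inflates the TPM of MT-TL1, whose 29 counts became 2469 TPM in the first BRD9 KO library, close to the 2791 TPM that MT-RNR1 had there from 28847 counts.

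Because the mRNA pool itself was lower in BRD9 KO, the transcripts were also compared relative to it, by setting each library's size to its summed mitochondrial mRNA count. The median over all genes then moved to 0.05 on the log2 scale, and 40.6% of all genes were called, 27.3% higher and 13.3% lower. All 13 mRNAs were called, 9 higher and 4 lower. The members of a sum cannot all move one way against it, so their split is not read as a result. A new library size moves all genes nearly alike, so their order is by construction that under TMM scaling. MT-ND2 (0.24), MT-ND3 (0.20), MT-ND5 (0.20), MT-ND1 (0.17) and MT-CYB (0.12) had the highest log2 fold changes relative to the pool, and MT-ND4 (-0.17), MT-CO1 (-0.14), MT-ND4L (-0.11) and MT-CO3 (-0.02) were below 0. MT-ND6 was at 0.06 (edgeR adjusted p = 0.000324). The sign of MT-CO2 (0.02), MT-ATP6 (0.02) and MT-ATP8 (0.03) turned from that under TMM scaling, so the direction of these mRNAs depended on the scaling.

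Against the mRNA pool MT-RNR1 was higher by 0.63 on the log2 scale (SE 0.01, edgeR adjusted p = 2.20e-19). MT-RNR2 was at -0.01 (adjusted p = 0.155), but was called without LacZ control replicate 1 (2.70e-05) and without LacZ control replicate 2 (5.74e-07), with a range of 5.74e-07 to 0.425 over all alternatives. Among the small changes, MT-CO3 was not called without the filter on low counts (adjusted p = 0.0632, range over all alternatives 5.84e-07 to 0.0632). MT-CO2 lost its call when BRD9 KO replicate 1 or LacZ control replicate 2 was left out. Its highest adjusted p came under a further alternative, in a range of 0.0102 to 0.183 over all alternatives. MT-ATP6 was not called when either BRD9 KO library was left out, nor with the replicate number as a block. Its highest adjusted p came under a further alternative, in a range of 0.00114 to 0.291 over all alternatives. MT-ATP8 lost its call when BRD9 KO replicate 1 (0.364) or LacZ control replicate 1 (0.0715) was left out, over a range of 0.0246 to 0.364.

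**Figure D3:**
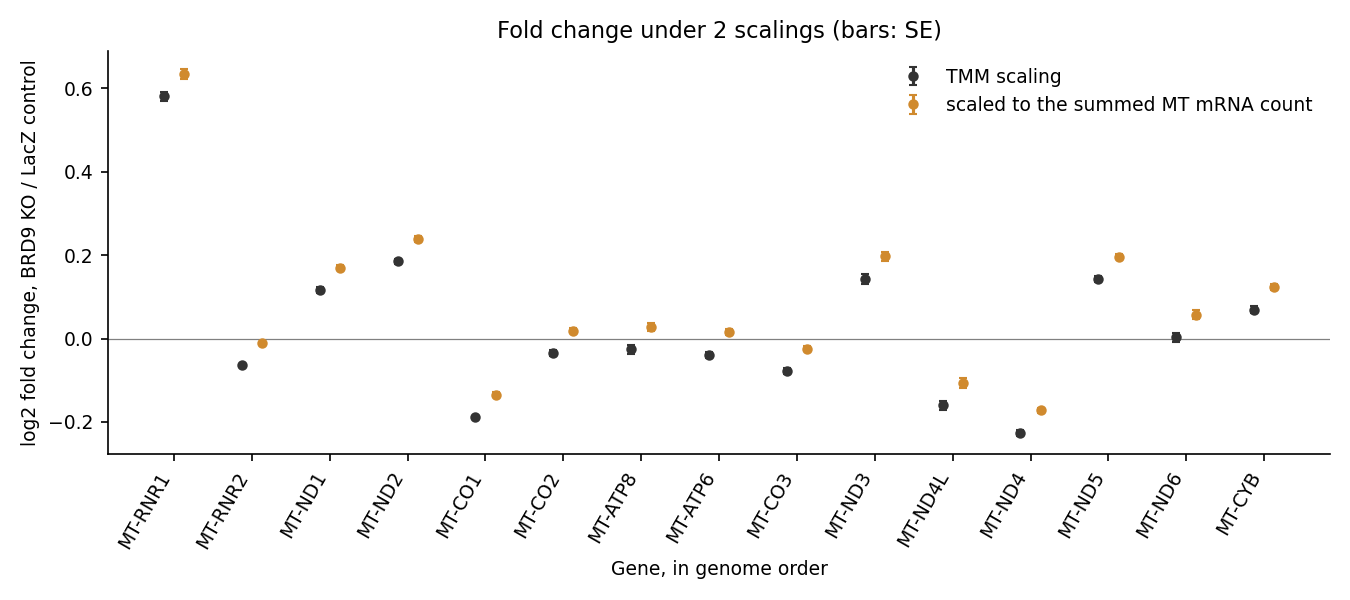
Log2 fold change of BRD9 KO over LacZ control for the 15 mitochondrial rRNAs and mRNAs, in genome order, under TMM scaling and relative to the summed mitochondrial mRNA count, with bars for the SE. The second scaling changes only the library sizes, so by construction it moves all genes by nearly the same amount and keeps their order. MT-RNR1 was highest at 0.58 and 0.63, and MT-ND4 was lowest at -0.23 and -0.17.

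Changes did not follow the order of the genes on the genome. From the heavy-strand promoter onwards, MT-RNR1 was higher, MT-RNR2 lower, MT-ND1 and MT-ND2 higher, the genes from MT-CO1 to MT-CO3 lower or near 0, MT-ND3 higher, MT-ND4L and MT-ND4 lower, and MT-ND5 and MT-CYB higher. Pearson's r across the 13 mRNAs between the log2 fold change and the start position was -0.08 (Spearman's rho -0.06). With length it was 0.01 (rho -0.01), with GC content, which ran from 39.6% to 47.7%, -0.13 (rho -0.21), and with the mean TPM -0.45 (rho -0.56). These describe 13 genes of the same libraries, which are no independent replicates. By annotated 3′ end, under TMM scaling 4 of the 6 mRNAs with an incomplete stop codon were higher and 2 lower. Of the 7 with a complete one, MT-ATP6 with its shared last base among them, 1 was higher, 4 lower and 2 not called (20.5% higher and 18.1% lower over all genes). Relative to the mRNA pool the counts were 4 higher and 2 lower for the incomplete and 5 higher and 2 lower for the complete stop codons (27.3% higher and 13.3% lower over all genes), so the counts by 3′ end depended on the scaling.

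Levels per length showed groups of mRNAs within a 5.12-fold range. MT-CO1 led with 17913 ± 20.3 TPM in BRD9 KO and 20284 ± 57.2 TPM in LacZ control, and MT-ATP6 had 18735 ± 55.3 TPM in BRD9 KO and 19112 ± 195 TPM in LacZ control (SD, n = 2 each). These neighbours in the order overlapped over the 4 libraries, and MT-ATP6 was above MT-CO1 in both BRD9 KO libraries but below it in both LacZ control libraries. MT-ATP8, MT-CO2 and MT-CO3 followed, each below the one before in every library. MT-ND4, MT-ND2, MT-ND1, MT-ND4L, MT-ND3 and MT-CYB came next, and each of these overlapped the next in the order. Within this group MT-ND4 had 7382 ± 9.1 TPM in BRD9 KO and 8577 ± 52.3 TPM in LacZ control, whereas MT-ND2 had 8407 ± 12.8 TPM in BRD9 KO and 7347 ± 40.5 TPM in LacZ control, so that their order differed between the groups. MT-ND6 with 4004 ± 14.8 TPM in BRD9 KO and 3969 ± 8.3 TPM in LacZ control, and MT-ND5 with 3928 ± 1.8 TPM in BRD9 KO and 3535 ± 5.4 TPM in LacZ control, were the lowest mRNAs.

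**Figure D4:**
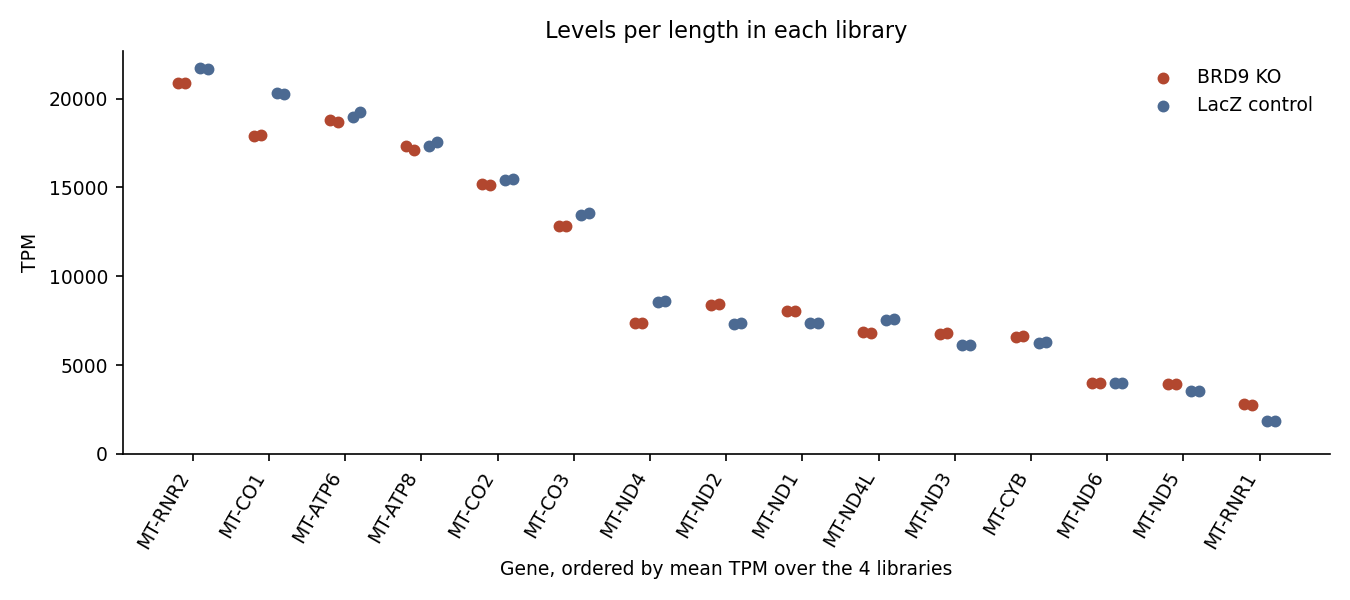
Level per length, in TPM on an axis from 0, of the mitochondrial rRNAs and mRNAs in each library, ordered by the mean over 4 libraries. MT-RNR2, MT-CO1 and the ATP synthase mRNAs stood highest and MT-RNR1 lowest, and MT-ND4 and MT-ND2 changed places between BRD9 KO and LacZ control.

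Copies of mitochondrial sequence in the nuclear genome could take or lend reads. By a pattern of symbols, 188 such pseudogene models were taken, and copies under other names are not among them. Of the 188, 21 and 25 had a count in the BRD9 KO libraries and 28 and 23 in the LacZ control libraries. Together they held 0.229% and 0.219% of the mitochondrial plus pseudogene counts in BRD9 KO and 0.221% and 0.224% in LacZ control. MTRNR2L9, a copy of MT-RNR2, had 1784 and 1456 counts in BRD9 KO and 1394 and 1598 in LacZ control. MTND6P4 had 1460 and 1157 counts in BRD9 KO and 1067 and 1207 in LacZ control, and MTND4P12 had 272 and 212 in BRD9 KO and 231 and 254 in LacZ control. None of the 7 tested was called by edgeR, and none had an unadjusted p under 0.05 with edgeR, with limma on log2(TPM + 1), or with DESeq2, which gave an adjusted p for 5 of them.

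Nuclear genes that copy mitochondrial DNA or make, process, modify and translate its RNA were more often higher than lower in BRD9 KO. In the edgeR fit 32 of the 74 were higher, 3 lower and 39 not called, against 20.5% higher and 18.1% lower among all genes, with a median log2 fold change of 0.12 against -0.01 over all genes. The number called was 19 with DESeq2 and 12 with limma on log2(TPM + 1), all of them higher, where 14.3% of all genes were called higher by DESeq2 and 8.77% by limma.

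Among 12 genes of DNA replication and maintenance, 6 were higher and 1 lower (20.5% higher and 18.1% lower over all genes). C10orf2, the helicase Twinkle that unwinds mitochondrial DNA, had 38.4 and 40.4 CPM in BRD9 KO and 29.8 and 29.0 CPM in LacZ control (log2 fold change 0.42, edgeR adjusted p = 1.52e-05). TOP3A, a topoisomerase that separates daughter circles, had a log2 fold change of 0.33, and MGME1, a nuclease of replication ends, 0.24. LIG3, the mitochondrial DNA ligase, which also works in the nucleus, was lower, with 34.6 and 35.4 CPM in BRD9 KO and 40.3 and 41.0 CPM in LacZ control (log2 fold change -0.22, adjusted p = 0.00413). The calls on these 4 genes were lost with limma on log2(TPM + 1), and that on LIG3 also with DESeq2.

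Of 8 genes of transcription, 3 were higher and none was lower (20.5% higher and 18.1% lower over all genes). POLRMT, the mitochondrial RNA polymerase, had 75.8 and 74.9 CPM in BRD9 KO and 75.8 and 72.8 CPM in LacZ control and was not called (log2 fold change 0.02, edgeR adjusted p = 0.70). TFB2M, which helps the polymerase open promoters, had 30.1 and 30.2 CPM in BRD9 KO and 21.6 and 21.7 CPM in LacZ control (log2 fold change 0.48, adjusted p = 1.51e-05). MTERF, a factor that binds within MT-TL1 downstream of the rRNA genes, had 16.3 and 14.9 CPM in BRD9 KO and 10.3 and 11.4 CPM in LacZ control (log2 fold change 0.52, adjusted p = 0.000379). TFAM, which packages mitochondrial DNA and activates its promoters, had 76.3 and 86.0 CPM in BRD9 KO and 72.8 and 69.0 CPM in LacZ control (log2 fold change 0.19, adjusted p = 0.0185). The TFAM call rested on single libraries, with an adjusted p of 0.0797 without BRD9 KO replicate 2 and 0.168 without LacZ control replicate 2, and it was lost with limma on log2(TPM + 1) (0.0796). Its range over all alternatives was 3.71e-06 to 0.168.

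RNA processing and turnover held the largest share of calls, with 14 of 23 genes higher and none lower (20.5% higher and 18.1% lower over all genes). LRPPRC, which stabilises mitochondrial mRNAs and promotes their polyadenylation, had 572 and 585 CPM in BRD9 KO and 495 and 499 CPM in LacZ control (log2 fold change 0.22, edgeR adjusted p = 1.22e-09). FASTKD5, needed to cut RNA at junctions that no tRNA marks, had 36.6 and 38.7 CPM in BRD9 KO and 27.5 and 28.9 CPM in LacZ control (log2 fold change 0.41, adjusted p = 2.79e-05). ELAC2, which cuts the 3′ end of tRNAs, had a log2 fold change of 0.25 (adjusted p = 4.90e-06), and GRSF1, a protein of the mitochondrial RNA granules, 0.21 (adjusted p = 8.26e-06).

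Modification of rRNA and tRNA gave 7 genes higher and 1 lower of 19 (20.5% higher and 18.1% lower over all genes). FTSJ2, a methyltransferase of the large-subunit rRNA, had 50.8 and 51.9 CPM in BRD9 KO and 40.9 and 38.3 CPM in LacZ control (log2 fold change 0.38, edgeR adjusted p = 1.01e-05). TRNT1, which adds the CCA end to tRNAs, and the pseudouridine synthase PUS1 both had log2 fold changes of 0.29, and TRMU, which thiolates tRNAs, 0.24. The call on TRNT1 was lost with limma on log2(TPM + 1) (adjusted p = 0.138, range over all alternatives 1.15e-05 to 0.138) and that on TRMU with DESeq2 (0.0629, range 0.000489 to 0.0629).

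Of 12 translation factors, 2 were higher and 1 lower (20.5% higher and 18.1% lower over all genes). GFM1, an elongation factor, had 115 and 116 CPM in BRD9 KO and 92.8 and 92.3 CPM in LacZ control (log2 fold change 0.32, edgeR adjusted p = 2.03e-07). TSFM, which recharges the elongation factor TUFM, had 40.2 and 39.6 CPM in BRD9 KO and 35.0 and 34.9 CPM in LacZ control (log2 fold change 0.19, adjusted p = 0.0107). TSFM was not called once BRD9 KO replicate 1 (0.0592) or LacZ control replicate 2 (0.0600) was left out, nor with DESeq2 or limma, and its adjusted p ran from 0.00325 to 0.127. MTRF1, of the release factor family, had 8.98 and 9.61 CPM in BRD9 KO and 11.9 and 11.6 CPM in LacZ control (log2 fold change -0.34, adjusted p = 0.0202). Its call was lost without BRD9 KO replicate 1 (0.134), without either LacZ control library (0.112 without replicate 1, 0.0821 without replicate 2), and with DESeq2 and limma, over a range of 0.0139 to 0.203.

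**Figure D5:**
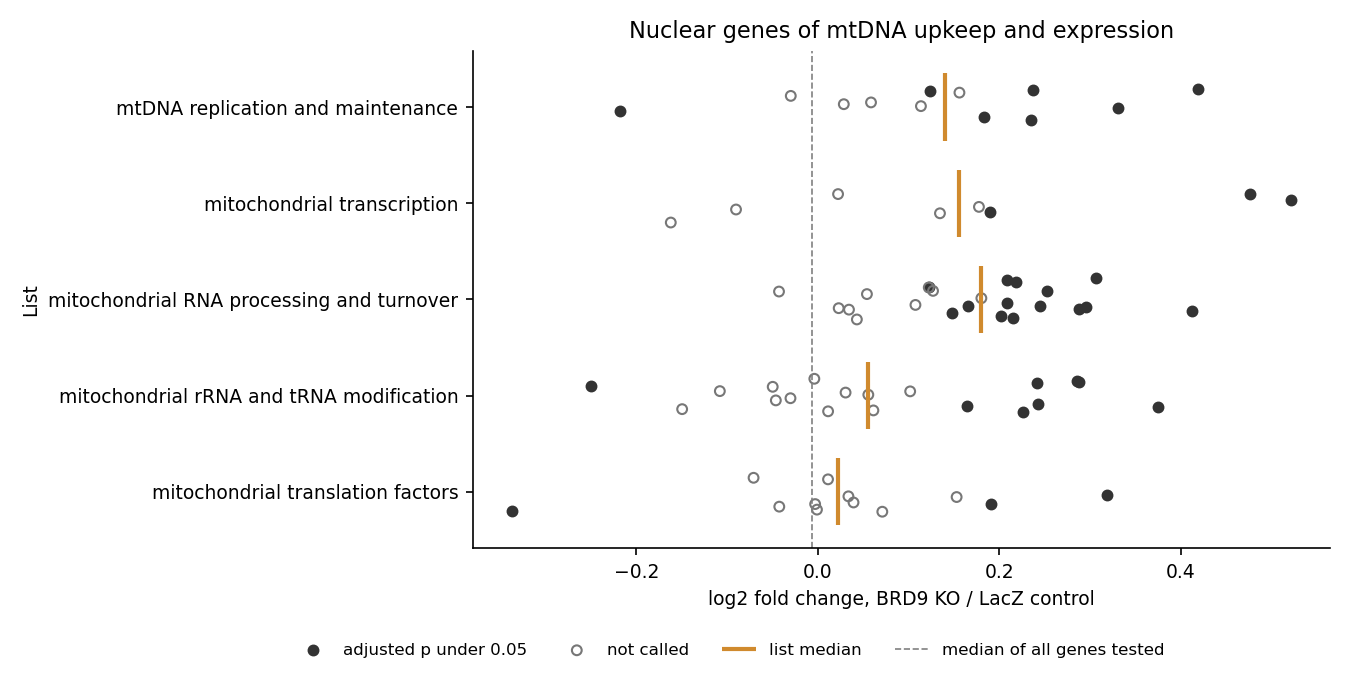
Log2 fold change of BRD9 KO over LacZ control for 74 nuclear genes in 5 lists. Filled points passed an edgeR adjusted p under 0.05, open points did not, orange bars are list medians and the dashed line is the median of all genes tested. Medians ran from 0.02 for translation factors to 0.18 for RNA processing and turnover, where 14 filled points lie right of 0 and none left of it.

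The complexes that hold the mitochondrial proteins also have subunits encoded in the nucleus. Of 85 gene models with subunit names 76 were tested, of which 23 were higher, 3 lower and 50 not called, with a median log2 fold change of 0.05. Over all genes 20.5% were higher and 18.1% lower, with a median of -0.01. Sorted into complexes by symbol alone, complex I names had 12 of 37 higher and 1 lower. For ATP synthase the counts were 7 higher and 2 lower of 18, for complex III 3 higher and none lower of 9, and for complex IV 1 higher and none lower of 12. UQCRC2, a core subunit of complex III named after its values were seen, had 626 and 617 CPM in BRD9 KO and 389 and 393 CPM in LacZ control (log2 fold change 0.67, SE 0.02, edgeR adjusted p = 2.22e-17), a rise larger than that of MT-RNR1.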

How the data were processed

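RNA of G401 cells was sequenced in 4 libraries, grouped by GEO's labels into BRD9 KO (replicates 1 and 2) and LacZ control (replicates 1 and 2). The labels name a Direct-zol extraction and the methods of the study Trizol with column cleanup, while poly(A) selection, harvest day and program versions are absent from the sources read here. Reads had been mapped to hg19 with STAR, and the authors deposited RSEM expected counts (estimated counts), posterior mean counts with their SD, lengths and TPM per gene. The submitters' processing notes also name DESeq2.

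Expected counts were rounded. The main test was the quasi-likelihood test of edgeR 4.0.16 (R 4.3.3) with TMM scaling, filterByExpr on group (15288 genes kept), robust dispersions and no covariate. It was two-sided, and p-values were adjusted by Benjamini-Hochberg across the genes kept. The SE follows from the F statistic. The methods of the study call the libraries biological replicates, but whether they came from separate cultures is not given in the labels, so p-values reflect the spread of these libraries alone, which can be technical. Across all genes with enough counts, replicates differed by more than sampling noise (chi-square over its degrees of freedom 1.59 in BRD9 KO, 1.62 in LacZ control). For the 15 mitochondrial mRNAs and rRNAs the median replicate difference was 0.299% in BRD9 KO and 0.972% in LacZ control. Counting error alone gives these genes an SD of 0.166% to 0.817% in BRD9 KO and 0.175% to 0.818% in LacZ control. The BRD9 KO median thus lay within the range of counting error. Alternatives were RLE scaling, library totals alone, scaling without mitochondrial genes, no filter or at least 1 CPM in all 4 libraries, DESeq2 1.42.0, limma 3.58.1 on log2(TPM + 1), replicate block, each library left out (the spread is then taken from the other group) and, added after seeing the data, dispersions without robust estimation. All tests were tried on simulated data.

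Gene coordinates and sequences come from GENCODE v44 and the genome sequence of GRCh37. The lengths of all 37 genes in the tables matched that annotation, although the mitochondrial sequence used with hg19 is not stated. Named were all mitochondrial mRNAs and rRNAs, tRNAs with at least 10 counts in a library, up to 4 called genes per machinery list by smallest p, POLRMT, TFAM and LRPPRC, and the 3 pseudogenes and nonpolyadenylated RNAs with most counts (of the latter, those tested). The nuclear subunits were taken by symbol pattern, which includes some read-through models. They were assigned to complexes by symbol alone, so a name need not match the complex that holds the protein. The members and lists were chosen with earlier results of these data known.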

Additional observations from a re-analysis of the deposited data

How the results depend on the processing

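The number of mitochondrial mRNAs called (11) stayed between 9 and 12 under every alternative, both rRNAs were called in each, and MT-TL1 was called in none. With single libraries left out in turn, the difference in the mitochondrial share ran from -0.325 to -0.285 percentage points. The number of machinery genes called fell to 19 with DESeq2 and 12 with limma on log2(TPM + 1). Calls over all genes also fell, to 3339 with DESeq2 and 2444 with limma, against 5901 with edgeR. Changes near 0 turned sign: MT-ND6 with library totals alone (-0.0032) and with at least 1 CPM in all 4 libraries (-0.0051), MT-TL1 with single libraries left out (-0.22 to 0.34, negative without replicate 2 of BRD9 KO or replicate 1 of LacZ control), and POLRMT with limma (-0.12) or with single libraries left out (-0.0061 to 0.0537, negative without replicate 2 of LacZ control). With the replicate number as a block, 12 mRNAs were called (5 higher, 7 lower), the addition being MT-ATP8 (-0.03), and relative to the mRNA pool 12, without MT-ATP6 (0.02, adjusted p = 0.0603). Same-numbered libraries share only a number: the correlation of their deviations was -0.05. Dispersions without robust estimation, chosen after seeing the data, gave 11 called mRNAs. With 2 libraries per group no exact permutation test over them can pass 0.05, fold changes of a few percent rest on replicate differences near 1%, and tRNAs shorter than a read are beyond what the tables measure.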
